A study of Mus musculus with 300 samples.

Results

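The 41 genes described here encode the machinery of DNA replication and other factors made in S phase. They were chosen by name from a list of known S-phase genes, and all 41 were among the 13737 features of the matrix. The cells came from the embryonic thymus (stage E15.5) of 5x polychromILC mice, which carry reporter alleles at loci of lymphoid transcription factors, Id2, Gata3, Rora and Bcl11b among them. Early thymic progenitors (ETPs), the first blood-borne cells to settle the thymus, were sorted singly into plates and profiled with Smart-seq2, a full-length single-cell RNA sequencing method. All cells form 1 group with no treatment, and the replicates were the 4 labelled mouse ids, with 67, 69, 64 and 61 cells analysed (1A, 1B, 2A, 2B). Every cell carries the same reporter alleles, so the data hold no animal without them, and the sources used here do not say whether a mouse id is 1 embryo or a pool, or how the sort was gated. The question put to these genes was which of them vary together from cell to cell, where they stand against mitosis genes, and how they relate to the progenitor receptor Kit, to Il2ra and to innate lymphoid genes.

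Replication is prepared in G1, when Cdc6 and its partners load the ring-shaped Mcm2-7 helicase at origins, and begins when Cdc45, the GINS complex and Mcm10 turn loaded helicases into moving forks. Transcription factors of the E2F family switch on most of these genes at the G1 to S border, and mitosis genes follow later in the cycle through other promoter elements. Fetal thymic progenitors divide as they pass from Kit-high cells without Il2ra (the IL-2 receptor alpha chain) to cells that carry Il2ra and commit to the T lineage.

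The promoters show which of the genes hold a strict E2F motif. RefSeq promoter windows (GRCm38.p6) matched 31 of the 41 genes in 34 windows, and the 250 bases before each start were searched on both strands, overlaps allowed, for TTTCCCGC, TTTCGCGC, TTTGCCGC and TTTGGCGC. At least 1 of these stood in 9 of 34 windows (26.5%), against 1 of 20 windows of the mitosis genes (5%) and 1.86% of all 32851 windows. The 9 genes were Casp8ap2, Cdc6, Cdca7, Dtl, Hells, Mcm5, Mcm6, Mcm7 and Pola1. The CCAAT box was in 70.6% of the windows of the S-phase genes, 90% of those of the mitosis genes and 33.9% of all. The cell cycle homology region (TTTGAA or TTCGAA) was in 20.6%, 45% and 17.1%. A match is a run of letters and not a measured binding site. Of the 7 genes called below with the mitosis score or with Kit, only Cdca7 is among the 9, and the windows of Ung, Mcm10, Tyms, Rrm2, Brip1 and Rad51ap1 held none of these letters. Below are the stretches of Cdca7, of 3 others of the 9 to show how matches are placed, and of Ung as a called gene with none, up to 180 bases long and ending before the annotated gene, with the E2F matches in capitals. They lie at chr2:72476039-72476158 (+ strand), chr1:128359706-128359885 (- strand), chr8:75109329-75109508 (+ strand), chr1:191575545-191575724 (- strand) and chr5:114130255-114130385 (+ strand), and each reads 5′ to 3′ on the strand of its gene.
Cdca7: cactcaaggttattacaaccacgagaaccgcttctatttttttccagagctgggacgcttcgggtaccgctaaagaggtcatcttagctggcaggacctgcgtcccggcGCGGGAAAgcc
Mcm6: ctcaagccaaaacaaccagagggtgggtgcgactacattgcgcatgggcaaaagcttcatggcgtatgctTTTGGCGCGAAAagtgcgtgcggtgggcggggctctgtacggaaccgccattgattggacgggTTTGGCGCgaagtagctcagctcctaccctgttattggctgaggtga
Mcm5: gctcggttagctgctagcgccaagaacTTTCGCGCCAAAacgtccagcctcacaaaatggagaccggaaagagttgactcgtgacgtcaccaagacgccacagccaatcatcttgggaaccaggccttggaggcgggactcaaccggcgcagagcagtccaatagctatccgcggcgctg
Dtl: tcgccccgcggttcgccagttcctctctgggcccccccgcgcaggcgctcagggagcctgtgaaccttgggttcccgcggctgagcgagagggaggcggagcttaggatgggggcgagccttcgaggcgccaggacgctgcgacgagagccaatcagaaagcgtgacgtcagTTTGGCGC
Ung: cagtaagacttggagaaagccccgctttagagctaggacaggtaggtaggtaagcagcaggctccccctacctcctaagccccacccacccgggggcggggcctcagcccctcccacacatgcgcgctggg
Mcm6 had 3 matches, a pair that overlap, the first beginning 110 bases before its start site, and 1 that begins 47 bases before it. In Mcm5 the 2 matches overlapped near the far end of the stretch. Dtl had 1 match that ends at the base before its start, and Cdca7 had 1 at 71 bases.

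The deposited values are log2 normalized expression after a batch correction. Exact values shared between cells divide the matrix into 4 correction sets, which partly follow the mice: 2A and 2B draw on the same pair of sets (35 and 26 cells of 2A, 36 and 25 of 2B), so these mice may not be independent units. Mice 1A and 1B lie in the first sequencing pool, 2B in the second, and 2A in both (29 and 35 cells). Detection of a gene means a value above the repeated lowest one of its set, and a cell had a median of 7782 detected genes (5073 to 10337). Each cell label occurred 1 time. Of the markers of the labelled cell type, thymic progenitor genes were detected in a median of 92.7% of cells (6 of 6 measured, Lmo2 lowest at 38.7%), T-lineage genes in 67.4%, dendritic in 57.5%, mast and basophil in 30.6%, NK and ILC in 28.4%, macrophage in 23.2% and B-cell genes in 10.3%. Genes of other lineages were thus detected in these libraries, and their part in the results on S-phase genes was not tested. The 32 cells in the first 8 wells of each correction set as a group went against the ETP label: their median innate score was 5.66, against -0.74 in the other cells, and their median Kit level, centred within sets, was -5.15, against 1.40. Kit was not detected in 40.6% of them and 4.8% of the others, while the mean of the S-phase genes had medians of 0.11 and 0.19. Single cells of the 32 ran from -1.25 to 10.17 in the innate score and from -7.82 to 2.42 in centred Kit. Among the other cells the innate score reached 4.41. Results are also given without these wells, which does not remove all such cells, nor only such cells.

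S-phase transcripts were found in most cells. The median gene of the 41 was detected in 92% of cells, against 57.9% for the median of all genes, and 25 of 41 were detected in at least 90% of cells. Among the helicase subunits, Mcm2, Mcm3 and Mcm6 had no repeated lowest value in any set, so the definition counts every cell as detected whatever its level. Mcm5 was detected in 99.2% of cells, Mcm7 in 98.5% and Mcm4 in 96.2%. Detection at this rate does not mean equal levels: Mcm6 had a median log2 value of 11.10, 10.87, 10.65 and 10.69 by mouse id (1A, 1B, 2A, 2B), yet single cells ran from 0.53 to 12.40. Mcm5 had medians of 9.66, 9.67, 9.09 and 9.32 and ran from -0.35 to 12.88. For both genes the medians of the mice lay close together, while the cells of each mouse differed by many log2 units.

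The genes found in fewest cells were Wdr76, E2f8, Dscc1, Ccne2, Clspn and Brip1, the 6 detected in under 70%. Wdr76, a factor linked to the DNA damage response, was detected in 55.2, 60.9, 54.7 and 59% of cells by mouse id (95% Clopper-Pearson intervals from 41.7 to 72.4%, which cover counting error only). E2f8, a repressor of E2F targets late in S phase, was detected in 53.7, 62.3, 56.2 and 59%. Ccne2 encodes cyclin E2, the Cdk2 partner of the G1 to S step, and was detected in 62.7, 60.9, 59.4 and 65.6%. None of these 3 genes had intervals that separate the mice.

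The spread between cells differed by gene. Rrm2, the regulatory subunit of ribonucleotide reductase, had the widest, with an SD over cells of 3.67, 3.71, 3.69 and 3.44 log2 units in the 4 mice and medians of 8.41, 7.83, 6.91 and 7.40. Rfc2, a subunit of the clamp loader, had the narrowest, with an SD of 1.76, 1.78, 1.78 and 1.41. Ung, the uracil-DNA glycosylase that removes uracil from new DNA, had an SD of 3.50, 3.61, 3.51 and 3.64 and medians of 6.64, 6.76, 6.30 and 5.64. Single cells ran from -0.24 to 9.80 for Ung, which was detected in 81.2% of cells, against 92% for Rrm2 and 99.2% for Rfc2.

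The S-phase genes varied together. Inside each mouse, the partial Spearman correlation between 2 genes, given the number of detected genes and the correction set, was taken over the cells and averaged over the 4 mice. The points are cells that share plates and libraries prepared side by side, so these values are descriptions with no p. The median over the 820 pairs of the 41 genes was 0.288 (0.26, 0.3, 0.3 and 0.312 in 1A, 1B, 2A and 2B), while the median over all pairs of 12439 genes was 0.004 and 0.12% of those pairs exceeded the former. Of the 820 pairs, 814 had a value above 0 and 685 were above 0 in each of the 4 mice.

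**Figure D1:**
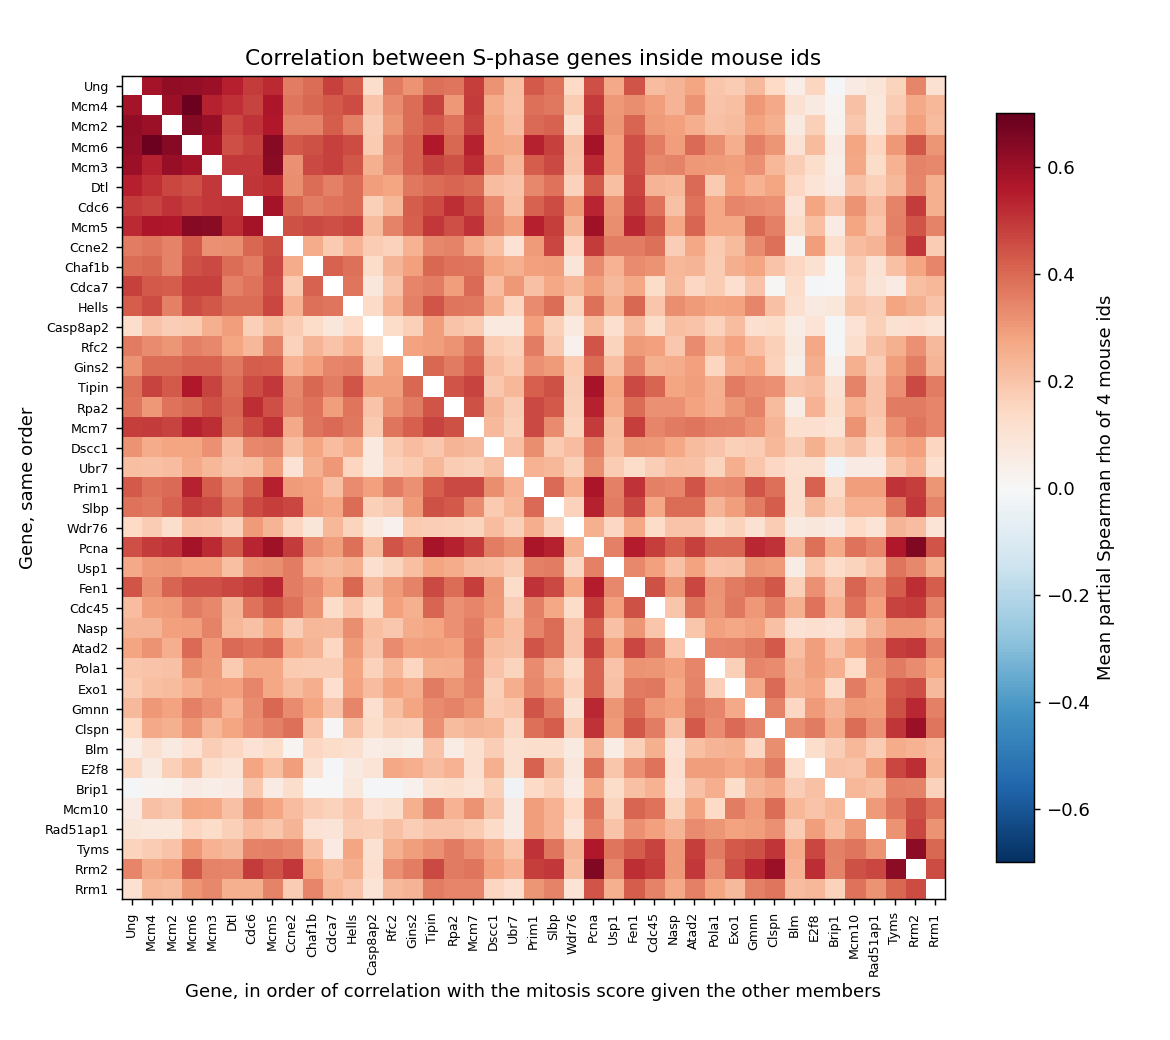
Partial Spearman correlation between each pair of the 41 S-phase genes (mean of 4 mouse ids, colour scale), with genes on both axes ordered by their correlation with the mitosis score given the other S-phase genes. The block of highest values at the top left holds Mcm2 to Mcm6, Ung, Dtl and Cdc6, Pcna and Rrm2 correlate broadly, and Brip1, Blm, Casp8ap2 and Wdr76 are pale throughout.

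The helicase subunits were the tightest group. The 15 pairs among Mcm2 to Mcm7, whose products form 1 ring, had a median correlation of 0.568 (0.472 to 0.689), against 0.337 for their pairs with the other S-phase genes. Mcm4 and Mcm6 were the highest pair of all (0.689; 0.715, 0.667, 0.762 and 0.592 in the 4 mice), followed by Pcna with Rrm2 (0.650), Mcm2 with Mcm6 (0.639), Mcm5 with Mcm6 (0.636) and Mcm3 with Mcm5 (0.631). In the matrix of pairwise correlations Mcm2 to Mcm6 stand in a block together with Ung, Dtl and Cdc6, while Mcm7 lies further along the order. By role, the median pair was 0.504 among the licensing genes (Mcm2 to Mcm7, Cdc6 and the licensing inhibitor Gmnn), 0.456 among the 3 genes of nucleotide supply, 0.331 among the 9 genes of the fork, 0.294 among the 3 control genes, 0.251 among the 3 helicase activators, 0.233 among the 8 histone and chromatin genes and 0.146 among the 7 repair genes.

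Pcna, the sliding clamp that holds the polymerases on DNA, followed the rest of the group most closely, with a correlation of 0.783 with the mean of the other 40 genes (0.812, 0.743, 0.767 and 0.803 in 1A, 1B, 2A and 2B). Rrm2 came next at 0.744 and Mcm5 at 0.69. At the other end, the 5 genes with the lowest mean pair correlation were Brip1 (0.13), a helicase of the Fanconi pathway, Blm (0.144), the Bloom syndrome helicase, Casp8ap2 (0.155), Wdr76 (0.163) and Ubr7 (0.183). Of these, Wdr76 and Brip1 were also among the genes detected in fewest cells, and the part of detection in their low correlation was not tested.

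Outside the 41 genes, those most like them were mostly other replication genes. Among 12439 genes compared, with a median correlation to the mean of the S-phase genes of 0.0166, those with the highest values included Gm48445 (0.762), Uhrf1 (0.735), Tk1 (0.614), Lig1 (0.5997), Gm6091 (0.598), Ccne1 (0.592), Hat1 (0.586), Dut (0.584) and Pola2 (0.576). Uhrf1 guides maintenance methylation to new DNA, Tk1 and Dut serve thymidine supply, and Lig1 joins Okazaki fragments. The first name on the list is a near copy of a gene of the group: Gm48445, a processed pseudogene at chr13:12679747-12679939, is 98.4% identical to Rrm2 over its annotated length. Likewise Gm6091 is 99.4% identical to Tk1 over its length. Reads of such copies may have been split between the loci, so the values of Rrm2 and Tk1 are uncertain to that extent. In the annotation 19 of the 41 genes have a transcript of another gene at 90% identity or more over at least 100 bases, Fen1 with Gm10143 and Pcna with Pcna-ps2 among them, and for 4 of the 41 (Rrm2, Tyms, Ccne2 and Rfc2) that other gene is itself in the matrix.

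To place the genes against mitosis, each was regressed inside each mouse on the mean of 22 mitosis genes such as Cdk1, Ccnb1, Plk1 and Top2a, with the number of detected genes and the correction set as covariates. A slope is the difference in log2 units per 1 SD of this mitosis score, and limma tested whether the 4 slopes of a gene differ from 0 (two-sided), with Benjamini-Hochberg adjustment over all 12417 genes tested at 0.05. Of the 41 S-phase genes 6 were called, 5 with higher levels in cells of higher mitosis score and 1 with lower, where 1.83% of all genes tested were called. The median slope of the 41 was 0.13 (-0.18, 0.19, 0.16 and 0.26 in 1A, 1B, 2A and 2B), against 0.0093 over all genes. In 1A it lay below the median of all genes in that mouse (-0.0070). Slopes were positive for 25 of 41, against 6485 of 12417 of all genes. The sign of the slope differed from gene to gene within the group.

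Ung stood alone at the lower end. Its level fell by 1.73 log2 units per SD of the mitosis score (SD 0.25, n = 4 mice, limma adjusted p = 0.000499), with slopes of -1.90, -1.89, -1.79 and -1.36 in 1A, 1B, 2A and 2B. All 4 mice lay well below 0 and apart from the slopes of every other S-phase gene. The slope was -1.16 without the depth covariate (limma adjusted p = 0.000772), and from -1.86 to -1.68 when 1 mouse was left out, called each time.

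The 5 genes that rose with the mitosis score serve nucleotide supply, fork activation and repair. Mcm10, which helps fire the loaded helicase, had slopes of 0.76, 0.74, 1.03 and 0.86 in 1A, 1B, 2A and 2B (mean 0.85 ± 0.13 SD, limma adjusted p = 0.00655). Tyms, thymidylate synthase, had slopes of 0.52, 1.06, 1.05 and 1.02 (mean 0.91 ± 0.26, limma adjusted p = 0.0117), and mouse 1A was low against the other 3. Brip1 had 0.80, 1.30, 0.61 and 0.85 (mean 0.89 ± 0.29, limma adjusted p = 0.017). All slopes of these 3 genes were above 0.5, and their ranges overlapped. Rrm2 had slopes of 0.74, 1.43, 1.29 and 0.55 (mean 1.00 ± 0.42, limma adjusted p = 0.0243), with 1B and 2A high. Rad51ap1, a factor of recombinational repair, had 0.55, 0.66, 1.36 and 1.44 (mean 1.00 ± 0.46, limma adjusted p = 0.0327), with 2A and 2B high. Rrm1, the large subunit of the same reductase as Rrm2, had slopes of -0.017, 0.46, 1.03 and 0.82 and was not called (limma adjusted p = 0.208), with 1A the lowest.

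**Figure D2:**
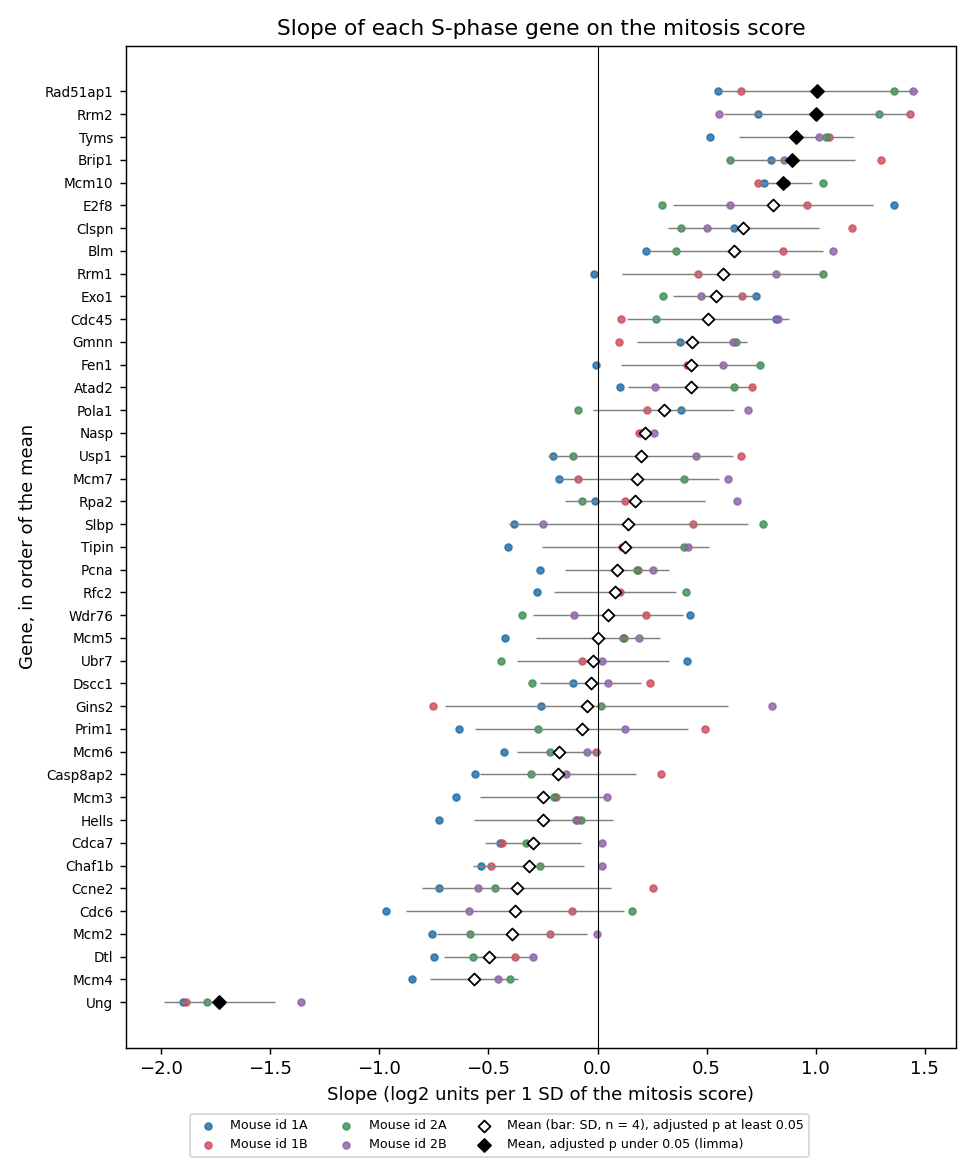
Slope of each of the 41 S-phase genes on the mitosis score (log2 units per 1 SD) in each of 4 mouse ids (coloured points), with the mean and SD (diamond and bar, filled where the limma adjusted p is under 0.05). Ung lies between -1.90 and -1.36 in all 4 mice, and the 5 filled diamonds at the top are Rad51ap1, Rrm2, Tyms, Brip1 and Mcm10.

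These calls rest on few mice. Without mouse 1A 5 S-phase genes were called, without 1B 2, without 2A 3 and without 2B 3, and Ung and Mcm10 were called in each of these fits. Tyms, Rrm2, Brip1 and Rad51ap1 each missed the threshold in at least 2 of them, with limma adjusted p up to 0.13. A rank-based form of the test (partial Spearman correlations over the same mice) called 4.18% of all genes and 14 of the 41. Of these, 10 were higher (Mcm10, Rrm1, Rrm2, Gmnn, Tyms, Rad51ap1, Blm, Brip1, Clspn and E2f8) and 4 lower (Ung, Mcm2, Mcm4 and Mcm6). Without the first 8 wells of each set the same 6 genes were called, and Clspn, the checkpoint adaptor claspin, besides (slope 0.72, limma adjusted p = 0.0378).

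None of the 6 helicase subunits was called with the mitosis score. Mcm4 had slopes of -0.85, -0.56, -0.40 and -0.45 on the mitosis score (mean -0.57 ± 0.20), below 0 in 4 of 4 mice, and missed the threshold (limma adjusted p = 0.0668). Mcm2 had -0.76, -0.22, -0.59 and -0.0038 (mean -0.39 ± 0.34, limma adjusted p = 0.302), and Mcm6 -0.43, -0.0091, -0.22 and -0.050 (mean -0.18 ± 0.19, limma adjusted p = 0.561). All 12 of these slopes were below 0, with 1A the lowest each time. Mcm3 averaged -0.25 ± 0.29, Mcm5 0.0022 ± 0.28 and Mcm7 0.18 ± 0.38, so the 6 subunits did not share a direction in this fit. Without the depth covariate the direction of the subunits with negative slopes turned, to 0.13 for Mcm4, 0.16 for Mcm2, 0.33 for Mcm3 and 0.41 for Mcm6 (limma adjusted p 0.506, 0.373, 0.0618 and 0.0385).

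Depth weighed heavily on this comparison. The mean of the S-phase genes correlated with the number of detected genes at 0.484 across cells (mean of 4 mice), the mitosis score did so at 0.541, and the correlation of the mean of the S-phase genes with the mitosis score was 0.305 without the covariate and 0.0616 with it. Without it, 27% of all genes and 24 of the 41 S-phase genes were called, 23 of them higher, and the number with negative slopes went from 16 to 2. The median slope of all genes then moved from 0.0093 to 0.19. Ung was lower in both fits. Whether the number of detected genes reflects the cell cycle or the making of the libraries was not tested.

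The 41 genes can be laid out by their correlation with the mitosis score given the other S-phase genes, from which the matrix of pairwise correlations takes its order. Lowest were Ung (-0.54), Mcm4 (-0.42), Mcm2 (-0.37), Mcm6 (-0.35), Mcm3 (-0.28), Dtl (-0.27), Cdc6 (-0.20) and Mcm5 (-0.19). Dtl directs destruction of the licensing factor Cdt1, so this end held the loader, 5 of the 6 helicase subunits, that licensing control and the glycosylase. It did not hold all the licensing genes: Mcm7 stood at -0.027 and the licensing inhibitor Gmnn at 0.23. In the middle stood Prim1 (-0.0075), the catalytic primase subunit, Slbp (0.022), which binds histone mRNAs, and Pcna (0.038). Highest were Mcm10 (0.27), Rad51ap1 (0.36), Tyms (0.41), Rrm2 (0.42) and Rrm1 (0.42). Before the other S-phase genes were taken into account, the correlation with the mitosis score was negative in all 4 mice for 9 genes, positive in all 4 for 15 and of mixed sign for 17. In 39 of 40 pairs of neighbours in the order the values of the 4 mice overlapped: Rrm2, for instance, ran from 0.16 to 0.57 and Tyms from 0.34 to 0.45. The exception was Ung (-0.59 to -0.52), which lay below Mcm4 (-0.49 to -0.33).

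Single mitosis genes did not relate to the S-phase genes alike. Of 22, 4 correlated positively with the mean of the S-phase genes in all 4 mice: Cdk1 (0.324), the kinase that drives mitosis, Aurkb (0.307), Top2a (0.27) and Ccnf (0.0985), the cyclin F gene. Another 10 were negative in all 4 mice, Ccnb2 (-0.277), Hmmr (-0.243), Cdc20 (-0.184) and Tpx2 (-0.149) lowest among them. Ccnb2 encodes cyclin B2, a partner of Cdk1, Cdc20 activates the ligase that ends mitosis, and Hmmr and Tpx2 act on the spindle. Over cells, the mean of the S-phase genes and the mitosis score, here not adjusted for depth, do not lie along a line. The cell with the highest mitosis score (5.46, mouse 2A) had an S-phase mean of -1.02, well below the median. It lies in the first 8 wells of its correction set, with an innate score of 6.46 and a centred Kit level of -7.82. Outside those wells, the cell with the highest mitosis score (4.92, mouse 2B) had an S-phase mean of -0.18. The shape of the scatter was not tested.

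**Figure D3:**
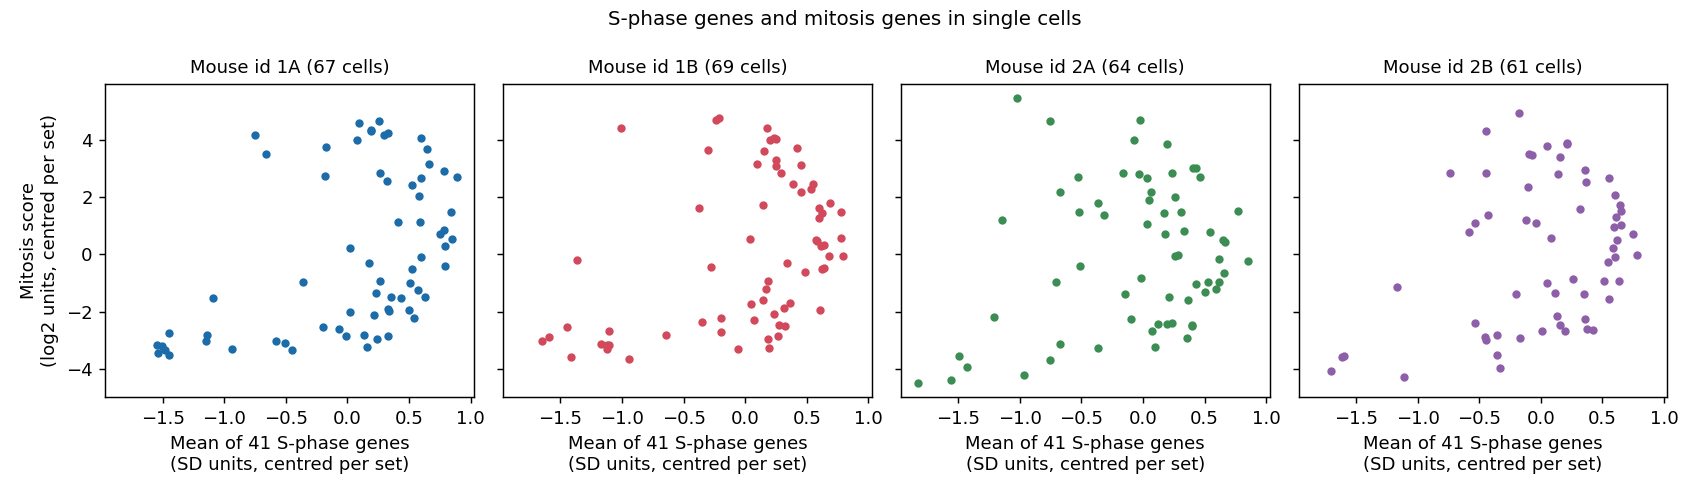
Mean of the 41 S-phase genes (x axis, SD units) against the mitosis score (y axis, log2 units) in each cell (points), both centred within correction sets, by mouse id. The S-phase mean runs from -1.83 to 0.89 and the mitosis score from -4.49 to 5.46, and in each panel cells of high S-phase mean cover a wide range of mitosis scores.

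Other genes of replication, 50 named from knowledge of the pathway, were set beside them. All 50 were tested against the mitosis score, with a median slope of 0.13, and 4 were called. Dbf4, the activator of the Cdc7 kinase that fires origins, rose (1.26 ± 0.24, limma adjusted p = 0.00204), as did the histone chaperone Asf1b (1.38 ± 0.43, 0.00552) and the clamp loader subunit Rfc4 (0.79 ± 0.25, 0.0198). E2f1, the transcription factor of the G1 to S step, fell by 0.72 log2 units per SD (slopes -0.67, -0.83, -0.63 and -0.75, limma adjusted p = 0.0117). Cdt1, which loads the helicase with Cdc6, had slopes of -1.02, -0.65, -0.53 and -0.35 and missed the threshold (limma adjusted p = 0.0695).

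With Kit, 1 of the 41 S-phase genes was called, where 0.643% of all genes tested were (80 of 12438, limma adjusted p under 0.05). Cdca7, a partner of the chromatin remodeler Hells and a target of Myc and E2F, rose with the stem cell factor receptor. Its slopes were 0.77, 1.26, 1.22 and 1.41 log2 units per SD of Kit in 1A, 1B, 2A and 2B (mean 1.17 ± 0.28 SD, n = 4, limma adjusted p = 0.0285), all far above 0, with 1A the lowest. The gene itself had medians of 8.93, 8.82, 8.78 and 8.83 in the 4 mice and was detected in 89.6, 95.7, 98.4 and 93.4% of cells. Given the mitosis score as a further covariate the slope was 1.13 (limma adjusted p = 0.0449). The call was lost without mouse 1B, 2A or 2B (limma adjusted p = 0.132, 0.101 and 0.134) and without the filter on detection (0.0568), with slopes of 1.09 to 1.17 in these fits. No gene of the 12438 was called without 1B, 2A or 2B, and 1 of 13736 was called without the filter. The loss is therefore not particular to Cdca7.

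The other slopes on Kit were mostly positive without passing the threshold. With Cdca7 included, slopes were positive for 39 of 41 genes and in all 4 mice for 18, with a median of 0.30 (0.31, 0.20, 0.045 and 0.77 in 1A, 1B, 2A and 2B) against 0.0658 over all genes, of which 7741 of 12438 were positive. Mouse 2B gave the highest median, and that of 2A was close to 0 and below the 0.093 of all genes in that mouse. Positive values were 32 of 41 in the rank-based fit and 33 without mouse 2B. Kit itself correlated with the mean of the 41 genes at 0.108 (0.225, 0.0925, -0.0948 and 0.206 in 1A, 1B, 2A and 2B). Each helicase subunit had a positive slope in 4 of 4 mice, with means from 0.38 (Mcm5) to 0.63 (Mcm4), and none passed the threshold (limma adjusted p 0.095 to 0.336). For Mcm2 the 4 slopes were 0.31, 0.13, 0.014 and 1.46, so that mean rests on mouse 2B, whereas Mcm3 had 0.44, 0.30, 0.76 and 0.66. Dtl (0.56, 0.65, 0.51 and 1.60), Hells (0.67, 0.71, 0.39 and 0.95) and the GINS subunit Gins2 (0.70, 0.66, 0.39 and 0.73) were also positive in all 4 mice and not called (limma adjusted p 0.0936, 0.0683 and 0.0687).

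Rrm2 and Tyms, which rose with the mitosis score, had slopes on Kit on both sides of 0. Rrm2 had slopes on Kit of 0.26, -0.55, -0.78 and 1.26 and Tyms of 0.34, -0.0075, -0.61 and 0.77, with 2A lowest and 2B highest for both (limma adjusted p 0.957 and 0.812). E2f8 had the lowest slope of the 41, at -0.55 ± 0.56 (-0.95, -0.32, -1.06 and 0.13, limma adjusted p = 0.209). The mitosis genes themselves had a median slope of -0.35 on Kit (-0.75, -0.66, -0.21 and 0.48 in 1A, 1B, 2A and 2B). Of these 22 genes 0 were called and 1 was negative in all 4 mice. The 50 other replication genes had a median of 0.23 (0.21, 0.051, -0.023 and 0.58). Of them 0 were called and 13 had an unadjusted p under 0.05, where 2393 of 12438 genes did.

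**Figure D4:**
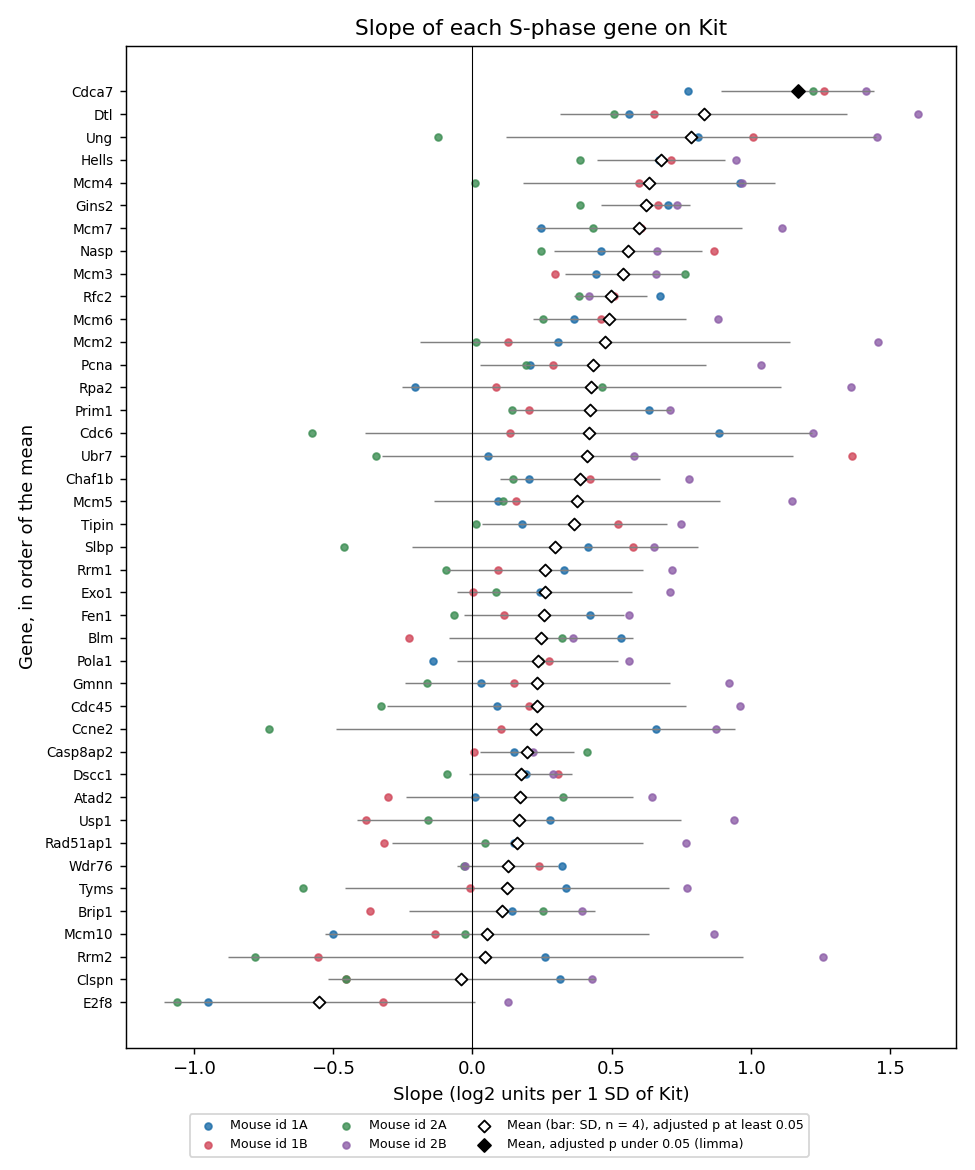
Slope of each of the 41 S-phase genes on Kit (log2 units per 1 SD of Kit) in each of 4 mouse ids (coloured points), with the mean and SD (diamond and bar, filled where the limma adjusted p is under 0.05). Cdca7 alone is filled, at 0.77 to 1.41 in the 4 mice, Mcm2 to Mcm7 lie right of 0 in every mouse, and mouse 2B holds the highest point for 33 of 41 genes.

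The count for Kit changed most with the handling of depth. Without the depth covariate 31.3% of all genes and 36 of the 41 S-phase genes were called, all 36 higher, and the median slope of all genes moved from 0.0658 to 0.25. The rank-based test called 5.92% of all genes and 10 of the 41, all higher: Mcm2, Mcm3, Mcm4, Mcm6, Mcm7, Cdca7, Dtl, Ung, Hells and Rfc2. Of these, Mcm2, Mcm4 and Ung were positive in 3 of 4 mice in the rank-based test, as was Mcm5, which was not called. Cdca7 was called both without the depth covariate and in the rank-based test. Without the first 8 wells of each set, where the median of Kit was low, Cdca7 had a slope of 1.19 (limma adjusted p = 0.0231). Mcm3 was called too (0.66, limma adjusted p = 0.0479).

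No S-phase gene was called with Il2ra, where 0.0% of all genes tested were called (0 of 12438 by limma, with 1026 at an unadjusted p under 0.05, 4 of them S-phase genes). Slopes ran from -0.42 (E2f8) to 0.40 (Cdca7), with a median of -0.0136 and 19 of 41 positive. Cdca7 had slopes on Il2ra of 0.25, -0.025, 0.65 and 0.74 (limma adjusted p = 0.537), and E2f8 of -0.35, -0.58, -0.15 and -0.59 (0.417). Mouse 1B was the lowest of the 4 in the median over the S-phase genes (0.12, -0.33, 0.064 and 0.28 in 1A, 1B, 2A and 2B). The rank-based test and the fit without the depth covariate also called 0 of the 41.

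The difference between the slopes on Kit and on Il2ra was tested directly in the same way. It called 0.0% of all genes and none of the 41 (0 of 12437 by limma, with 1402 at an unadjusted p under 0.05, 14 of them S-phase genes). The difference was positive for 39 of 41, with a median of 0.36 against 0.0541 over all genes. It was largest for Cdca7, at 0.52, 1.29, 0.57 and 0.67 in the 4 mice (mean 0.76 ± 0.36, limma adjusted p = 0.249). A different relation of Cdca7 to Kit and to Il2ra was therefore not shown. Without the depth covariate 11.3% of all genes and 27 of the 41 were called. Il2ra itself had slopes on Kit of 0.75, 0.17, 1.79 and 0.82 and missed the threshold (limma adjusted p = 0.118).

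Innate lymphoid genes showed no relation to the S-phase genes that held across the mice. Against the mean of 12 innate genes such as Il2rb, Tbx21, Zbtb16 and Gzma, 0.0% of all genes tested were called and none of the 41 (0 of 12427 by limma, with 1147 at an unadjusted p under 0.05, 2 of them S-phase genes). The median slope was 0.11, yet the mice disagreed, with -0.021, -0.48, 0.26 and 0.47 in 1A, 1B, 2A and 2B, and single genes had limma adjusted p of 0.51 to 1.00. The innate score itself spread less in 2B (SD 0.72, highest cell 2.76) than in 1A, 1B and 2A (SD 1.60, 2.63 and 2.44). These SDs are taken before the covariates. In 1A the highest scores (4.25 to 5.92) were those of 5 cells, the only ones of that mouse in their correction set. Its other cells reached 2.32, and the set covariate takes out the difference between these groups. A slope per 1 SD is therefore not the same contrast in each mouse, with few innate-high cells behind it in 1A and 2B. The part of this in the disagreement was not tested. Cdc6 had the highest slope (0.37, -0.69, 1.18 and 1.17), and Cdca7 the lowest (-0.34, -1.32, -0.025 and 0.29), each with values on both sides of 0. Taken singly, the 12 innate genes correlated with the mean of the S-phase genes at -0.0772 (Klrd1) to 0.13 (Zbtb16), and none had the same sign in all 4 mice: all 12 were negative in 1B, all 12 positive in 2A, 8 positive in 2B and 5 in 1A. Among other progenitor and T-lineage genes, Flt3 stood at -0.128 and negative in 4 of 4 mice, Tcf7 at 0.137 and Cd34 at 0.0336, the last 2 of mixed sign.

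The first 8 wells of each set were as a group high in the innate score and low in Kit, though not in every cell. Without them the counts of S-phase genes called with the innate score and with Il2ra stayed at 0.

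**Figure D5:**
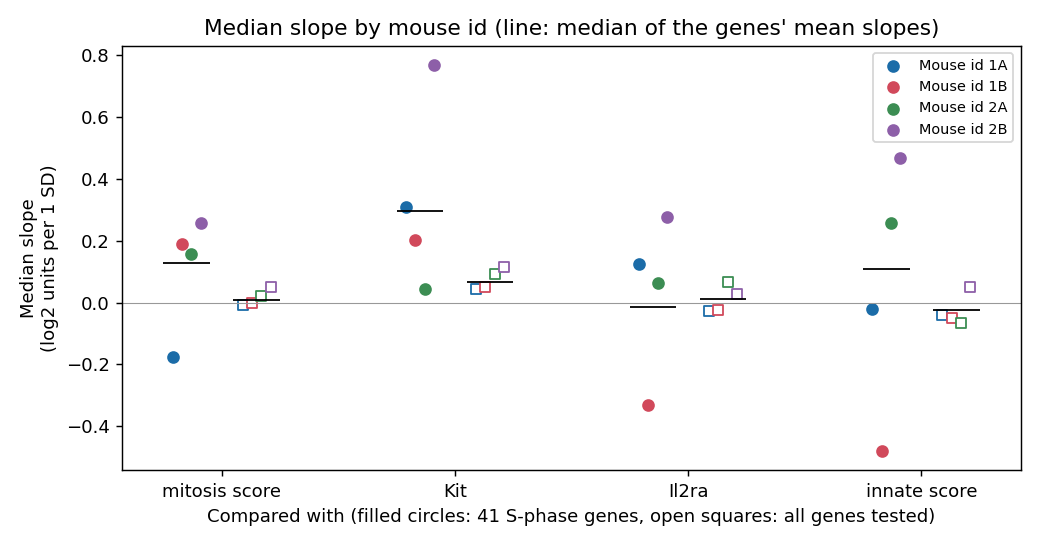
Median slope of the 41 S-phase genes (filled circles) and of all genes tested (open squares) on the mitosis score, Kit, Il2ra and the innate score (log2 units per 1 SD), by mouse id, with a line at the median of the genes' mean slopes. The S-phase medians are above 0 in all 4 mice for Kit only, from 0.045 to 0.77, and spread from -0.48 to 0.47 for the innate score. On Kit the medians of all genes are also above 0 in all 4 mice (0.043 to 0.12), and in 2A that of all genes is the higher.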

How the data were processed

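Single cells were profiled with Smart-seq2. The authors deposited log2 normalized, batch-corrected values of 13737 features; Salmon and the build GRCm38 are named, without versions, per the submitters' processing notes; depth normalization, correction tool and filters: not given in the sources used here. Labels name 300 cells of 4 mouse ids, of which 261 have a column; the other 39 were not analysed here. Values were used as deposited. Read depth is unknown, so the number of detected genes stands for it.

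Inside each mouse id genes found in at least 10% of cells were each regressed on the mitosis score, Kit, Il2ra or the innate score (each per 1 SD of its residual), with the number of detected genes and the correction set as covariates. A set is a group of cells that share exact values (at least 14.2% of values within a set, 0.0% between sets), and a value more than 1e-06 above the repeated lowest one counts as detected; for 14 of the 41 genes at least 1 set has no such level. The 4 slopes were tested with limma 3.58.1 in R 4.3.3 (intercept only, two-sided), adjusted with Benjamini-Hochberg over all genes at 0.05. Replicates are mouse ids, never cells; nothing says that these are separate animals, so p-values measure the spread between these samples. Correlations were computed in Python 3.11.15 with scipy 1.17.1. The slope and test steps were tested on simulated data.

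The genes and lists were chosen with earlier results of these data known. Named were the genes called in a comparison (at most 10 a direction), Mcm2 to Mcm7, Pcna, Cdc6, Ccne2, Gmnn, Rrm2, Tyms, Hells, E2f8, Slbp, the anchors, the 10 genes most like the group (1 not reported here), the 5 closest pairs and the 5 genes least correlated; others were chosen after their values were seen. Gene positions and copies are from GENCODE (GRCm38), promoters from RefSeq; protein sequences were not used here. Alternatives were a rank-based test, other covariates, detection filters, the correction set as unit, and leaving out wells or each mouse.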

Additional observations from a re-analysis of the deposited data

Results flagged for a closer look

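Of 81 sets of 4 mouse values looked at, 14 had 1 mouse far from the other 3, where chance flags about 1 in 20. The sets share mice, cells and scores, so the 14 cannot be read as an excess over that rate. Detection was lowest in 1A for Mcm5, Pcna and Slbp (97.01% of cells each, against 100% in the other mice), and in 1B for Mcm7 (94.2%) and Rrm2 (84.1%). Mcm5, Pcna and Slbp had a repeated lowest value in 1 correction set only and Mcm7 in 2, so cells of the other sets could not count as undetected. For these 4 genes the values rest on the definition and cannot be read as differences in level between mice. For Mcm5, centred within sets, the undetected cells of 1A lay at -7.51, while a cell of 2B at -9.26 counted as detected. On the mitosis score, mouse 1A gave the lowest slope for Mcm5 (-0.42), Pcna (-0.26), Tyms (0.52) and Hells (-0.73). On Kit, mouse 2B gave the highest slope for Mcm5 (1.15) and Pcna (1.04). On Il2ra, mouse 1B was low for Pcna (-0.33) and mouse 1A high for Gmnn (0.15). On the innate score, Mcm7 had its outlying slope (-1.08) in mouse 1B. Whether these mice differ by cells, plates or correction set was not tested; 1A and 1B lie mostly in sets of their own.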

How the results depend on the processing

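Of the named genes' slopes under all alternatives (941), 881 stayed on their side of the threshold (822 of them with the same sign), 42 became called, 18 lost their call and 0 called values changed sign. Values that were not called changed sign 60 times, and 1 of these was called with the other sign (Mcm6 on the mitosis score without the depth covariate, 0.41 against -0.18). Against 6 S-phase genes called with the mitosis score, the rank-based test called 14 and the fit without the depth covariate 24, and leaving out 1 mouse gave 2 to 5. Against 1 with Kit, the rank-based test called 10, the fit without the depth covariate 36, and 2 each were called with plate as covariate, genes detected in at least 50% of cells, the correction set as the unit, and without the first 8 wells; without a detection filter 0 were called, and leaving out 1 mouse gave 0 to 1. For the difference of Kit and Il2ra, against 0, the rank-based test called 1 (48 of 12437 genes over all) and the fit without the depth covariate 27 (1408 of 12437). The counts for Il2ra and the innate score were 0 in every fit, where at most 8 and 47 of all genes were called (rank-based test). Fits with 1 mouse fewer have fewer units to test; the cause of the other differences was not tested. The median pair correlation was 0.282 to 0.305 under its alternatives. No paired analysis was possible because the cells form 1 group. With 4 mouse ids, of which 2 share correction sets, small slopes were not detectable.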

Other observations

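Of the 50 other replication genes, 15 had positive and 3 negative slopes on the mitosis score in all 4 mice, against 1574 and 1062 of 12417 genes. Some that were not called are given as values. The GINS subunits Gins3 (0.20, 1.43, 0.020 and 0.94 by mouse id, 1A to 2B) and Gins4 (0.066, 0.42, 0.47 and 1.02), the primase subunit Prim2 (0.34, 0.77, 0.39 and 0.53) and the origin-firing factor Ticrr (0.38, 0.65, 0.65 and 1.24) had positive slopes in all 4 mice, with limma adjusted p of 0.276, 0.224, 0.093 and 0.0664. Cdc25a, the phosphatase that frees Cdk2 for S phase, was negative in all 4 (-1.03, -0.23, -0.19 and -0.33, limma adjusted p = 0.278). On Kit, Cdc25a was positive in all 4 (0.91, 0.24, 0.81 and 1.10, limma adjusted p = 0.0756), while the E2F genes E2f2 (-0.24, -0.71, -0.69 and -0.072) and E2f7 (-0.26, -0.51, -0.75 and -0.033) were negative in all 4 (limma adjusted p = 0.182 and 0.212). These genes were chosen after their values were seen.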
